A study of Mus musculus with 2 samples.

Results

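The loci that encode the alpha and beta chains of the T cell receptor, Tcra and Tcrb, were examined for binding of Lef1, a TCF/LEF transcription factor, in mouse CD4+ T cells. All peaks of the deposited wild-type Lef1 list that overlapped Tcra (chromosome 14, 52427967 to 54224198, mm10) or Tcrb (chromosome 6, 40891296 to 41558371, mm10) were taken, whatever their score. Of 2052 listed peaks, 7 did so, 5 in Tcra and 2 in Tcrb.

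The peaks came from chromatin immunoprecipitation and sequencing with the anti-Lef1 antibody C18A7. The wild-type library was made from conventional CD4+ T cells (TCRb+, CD4+, CD25-) sorted from spleens of C57BL/6 mice aged 8 to 10 weeks. The other library, which served as the control of the peak calls, was made with the same antibody from CD4+ T cells (TCRb+, CD4+) of CD4-Cre+ Lef1 fl/fl mice of the same strain, in which the Cre recombinase is driven by Cd4 regulatory sequence and deletes Lef1 in thymocytes that have begun to express CD4 and in their descendants. The sources used here state neither the age of those mice nor how many animals went into either library, and there was 1 library of each kind, so no difference between samples could be tested. A peak is thus an excess of wild-type over Lef1-deficient reads in this pair of libraries, its score, as deposited, is −log10 of a p-value, and the depth of the libraries is unknown. Both libraries are described as amplified for 18 to 21 PCR cycles, without the number for each. The gates are uncertain: the wild-type cells are labelled CD25-negative, and GFP-negative as well in the series text, while the source of the control is given as all CD4 T cells and the tissue of both as naive CD4 T cells. If the gates differed, genotype and gate cannot be told apart.

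Developing T cells assemble their receptor genes from separate V, D, J and C segments. A V segment, which has a promoter of its own, is joined to a J segment, in Tcrb with a D segment between them, and the germline DNA that lay between the joined segments is usually lost. Transcription and recombination are driven by an enhancer at the constant end of each locus: the alpha enhancer lies past the constant segment Trac, on the way to the gene Dad1, and the beta enhancer lies between the constant segment Trbc2 and the inverted V segment Trbv31. Lef1 and its relative Tcf1 are textbook binders of the alpha enhancer. The delta chain locus, Tcrd, is nested inside Tcra, with its own enhancer near its constant segment Trdc.

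All 7 peaks lay in the V arrays, and all 7 lay within 1 kb of a V segment. The stretches within 1 kb of a V segment made up 18.8% of Tcra and 12.3% of Tcrb. Of all 2052 listed peaks, 69.3% lay within 1 kb of some annotated gene or segment. That share counts genes of any kind over their whole length, so it is not a matched background for the V segments. The nearest V segments were Trav12d-3, Trav7d-6, Trav7n-6 and Trav10 in Tcra and Trbv12-1 in Tcrb, none of them annotated as a pseudogene. At all of these but Trav10 the peaks lay just outside the segment on its low-coordinate side. The pseudogene Trav5d-3 also lay within 1 kb of a peak. In all, 1 of 30 pseudogene V segments (3.33%) and 5 of 141 other V segments (3.55%) had a peak within 1 kb. The constant segments of both loci lie at the high-coordinate end, and a V segment that points towards them has its promoter on the low-coordinate side. The gene table used here gives no strand for the segments.

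**Figure D1:**
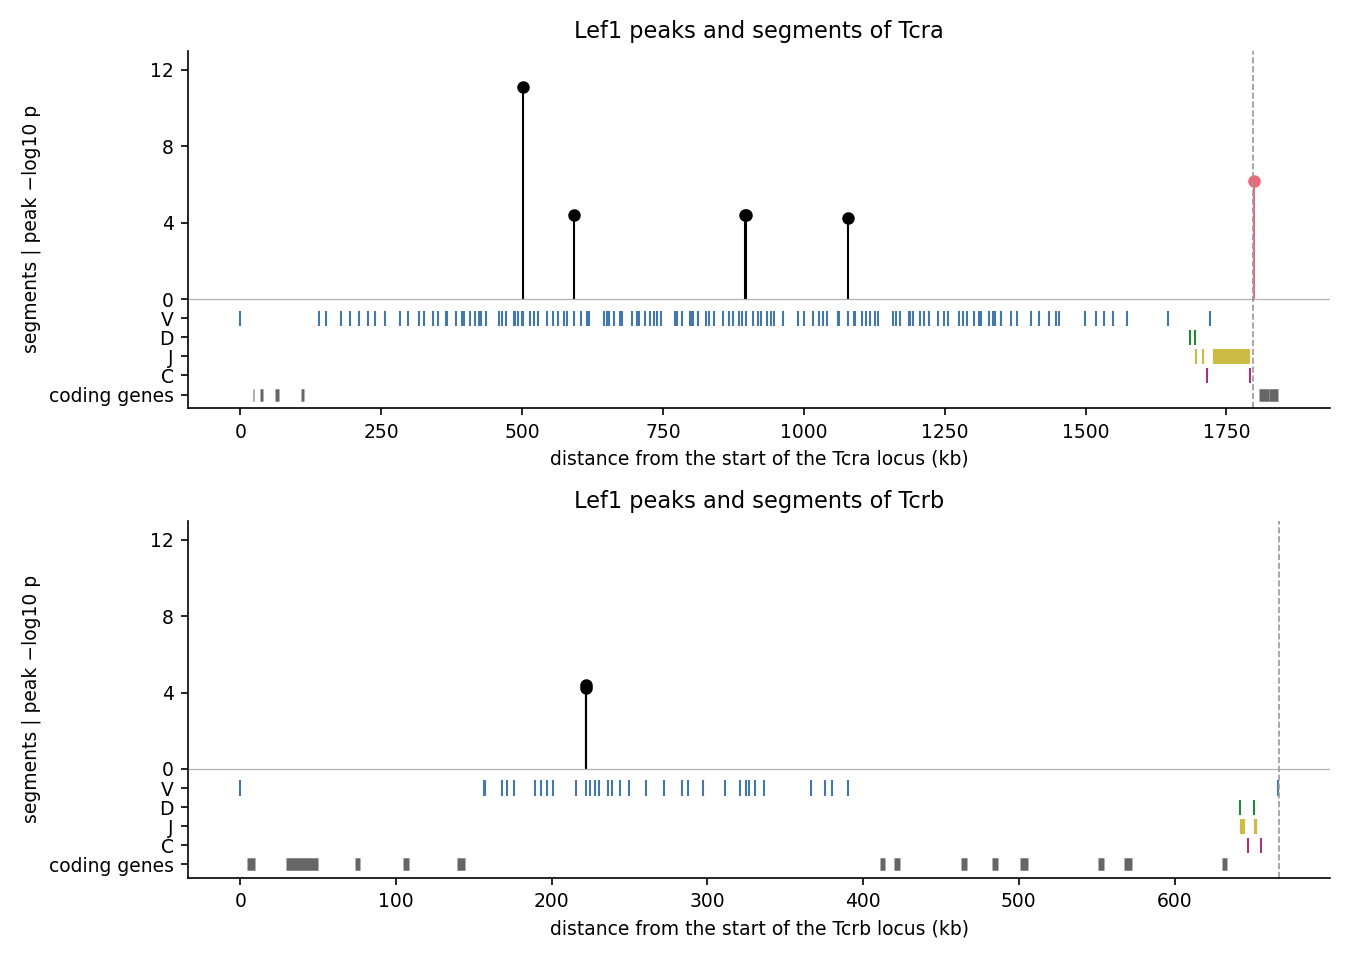
Positions of Lef1 peaks and gene segments along Tcra (upper panel) and Tcrb (lower panel). The x axis is the distance from the start of the locus in kb, stems give each peak's −log10 p, coloured ticks below 0 mark V, D, J and C segments, grey bars mark protein-coding genes and the dashed line is the end of the locus. The 7 black peaks sit over the V ticks, and the red peak of score 6.17 lies past the end of Tcra on the way to Dad1.

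The strongest peak in either locus was at Trav12d-3. It ran from 52929471 to 52929772 on chromosome 14, was 302 bp wide and scored 11.09, which ranked it 26 of 2052, with 1.22% of the list scoring higher. It ended 17 bp below the start of Trav12d-3 (52929789 to 52930282). The V pseudogene Trav5d-3 ended 939 bp below it on the other side. No other peak within the boundaries of Tcra and Tcrb scored above the median of the list, 4.40.

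Trav7d-6 and Trav7n-6 are namesakes in a part of the Tcra V array that exists in several copies in C57BL/6 mice, marked by d, by n or by no letter in the segment names. At Trav7d-6 (53020459 to 53020991) there was 1 peak, from 53020143 to 53020353, 211 bp wide and scoring 4.40. At Trav7n-6 (53324676 to 53325208) there were 2, from 53324247 to 53324382 and from 53324472 to 53324586, both scoring 4.40 and separated by 90 bp. When positions were counted from the start of each V segment, the Trav7d-6 peak ran from 316 to 106 bp below it, and the Trav7n-6 peaks ran from 429 to 294 bp and from 204 to 90 bp below it. So aligned, the Trav7d-6 peak overlapped the first of them by 23 bp and the second by 99 bp. The third copy, Trav7-6 (53716760 to 53717291), had its nearest listed peak 211 kb away.

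The other duplicated segments had a peak at 1 copy of 3. The namesakes of Trav12d-3 are Trav12n-3 and Trav12-3, each 494 bp long like it, and their nearest listed peaks lay 83.0 and 116 kb away. At Trav10 the peak lay inside the segment (53505790 to 53506286), 84 to 138 bp past its low-coordinate end. It ran from 53505874 to 53505928, was 55 bp wide, the least width in the list, and scored 4.25. Trav10n and Trav10d had their nearest listed peaks 102 and 118 kb away. By name, 40 Trav segments carry the letter d, 34 the letter n and 56 neither, and of these 3, 1 and 1 had a peak within 1 kb. The segment sequences were not used here, so how like the copies are, and how the aligner placed reads that match more than 1 of them, was not tested, and which copy such a peak belongs to is uncertain.

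**Figure D2:**
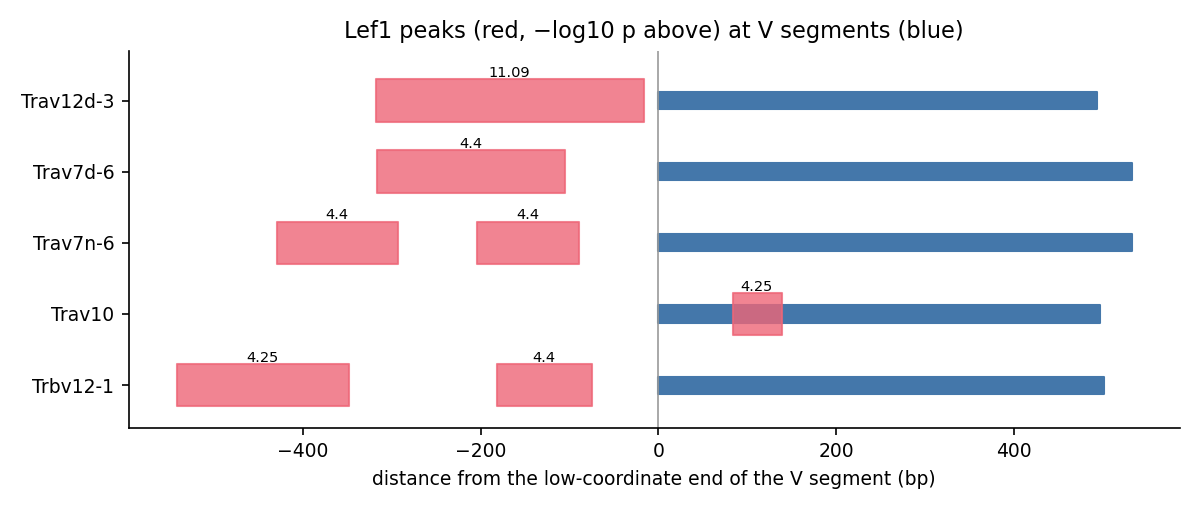
Lef1 peaks (red bars, −log10 p above each) drawn from the low-coordinate end of their nearest V segment (blue bar), 1 row per segment, with distance in bp on the x axis. Except at Trav10, where the peak lies inside the segment, the 6 peaks begin between 182 and 542 bp below the segment and end between 17 and 349 bp below it.

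In Tcrb both peaks lay beside Trbv12-1 (chromosome 6, 41113567 to 41114067), a member of the Trbv12 family of 3 segments. The first ran from 41113025 to 41113218, was 194 bp wide and scored 4.25. The second ran from 41113385 to 41113491, was 107 bp wide and scored 4.40. They were 167 bp apart and lay 542 to 349 bp and 182 to 76 bp below the segment, the same side as in Tcra. Trbv13-1, the next V segment above, was 2.54 kb from the second peak, and no other Trbv segment lay within 5 kb of a peak. Listed peaks on either side of the locus were remote, the nearest 3280 kb below it and 3230 kb above it.

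With the pairs at Trav7n-6 and Trbv12-1, 4 of the 7 peaks had a listed neighbour within 1 kb, as did 193 of 2052 peaks (9.41%) in the list as a whole. Whether each pair is a single site was not tested. With neighbours within 1 kb joined, Tcra held 4 peaks and Tcrb 1.

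Most of the peaks were low in score but not narrow. Of the 7, 4 scored 4.40, the most common score of the list, which 828 peaks (40.4%) shared, and 2 scored 4.25, which 76.6% of the list exceeded. Above the median stood 1 of 7 (14.3%), against 30.6% of the list. In width, 6 of 7 exceeded the median of the list, 79 bp, and the median of the 7 was 136 bp (range 55 to 302 bp). With the peaks above the median score alone, Tcrb would hold none and Tcra only the peak at Trav12d-3.

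**Figure D3:**
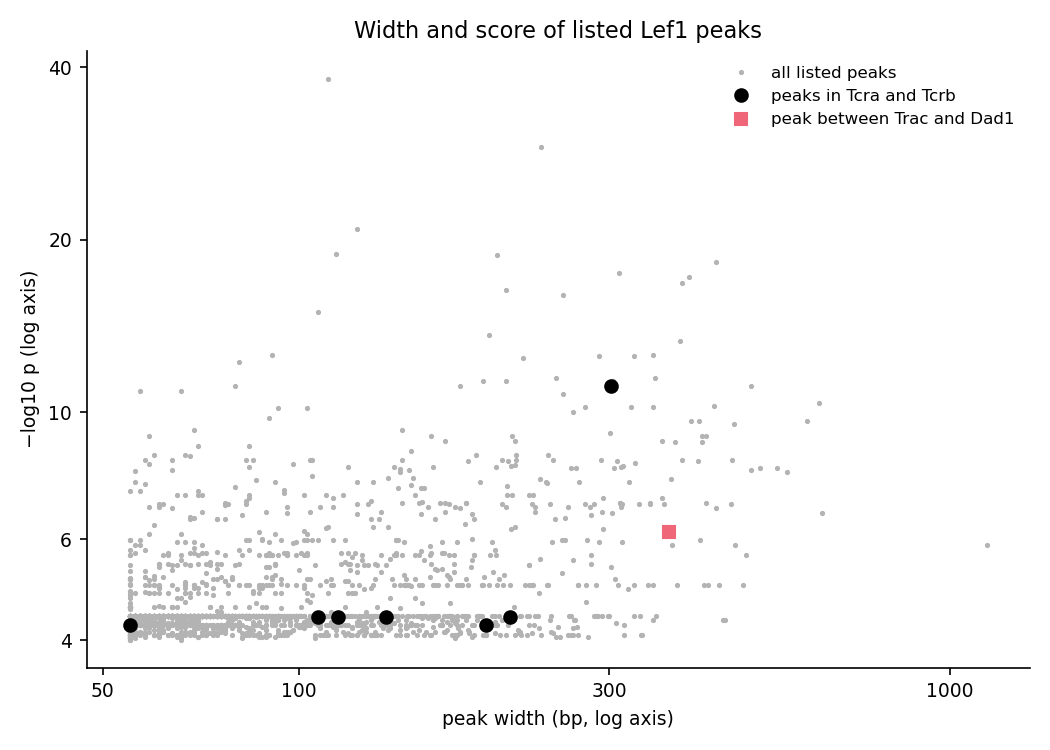
Width in bp (x axis, log) and −log10 p (y axis, log) of the 2052 listed peaks (grey), the 7 in Tcra and Tcrb (black) and the peak between Trac and Dad1 (red square). Of the black points 6 lie in the low band at 4.25 to 4.40 over widths of 55 to 211 bp, and the peak at Trav12d-3 stands apart at 11.09.

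The alpha enhancer stretch held a peak, which the boundary of Tcra at the end of Trac leaves outside the 7. It was the only listed peak between Trac and Dad1, a stretch of 11.3 kb, and ran from 54227336 to 54227706 on chromosome 14. It began 3.14 kb past the end of Trac (54220521 to 54224198) and ended 7.78 kb before Dad1 (54235485 to 54253929), which encodes a subunit of the oligosaccharyltransferase. With 371 bp it was wider than all 7 peaks of the loci and than 98.1% of the list. Its score of 6.17 ranked 238 of 2052 and was below that of Trav12d-3 and above those of the other 6. Positions of the enhancer itself and the sequence under the peak were not used here, so whether the peak covers its Lef1 binding site was not tested.

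No listed peak lay at the other landmarks of Tcra. The D and J delta segments up to Trdc (29.4 kb), the stretch from Trdc to the first Traj (12.2 kb), the J alpha segments (63.8 kb) and the stretch from the last Traj to the end of Trac (5.36 kb) had 0 peaks each. Trdc, next to the delta enhancer, was 81.2 kb from the nearest listed peak, and Traj61, at the start of the J alpha array, 72.3 kb. The whole Tcrd locus held 0. The Trdv segments had none within 5 kb, the closest being Trdv5 at 78.1 kb. Trav1, which opens the locus, lay 408 kb from a peak. The D delta, J delta and Trdc stretch lies between the V array and the J alpha segments. DNA between a joined V and J segment is usually lost, as said above. How much of the delta and J alpha stretches was left in the sorted cells was not measured, so these zeros are uncertain for that reason as well.

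The beta enhancer stretch held no listed peak. The 9.51 kb between Trbc2 and Trbv31 had 0, and the nearest lay 435 kb away. The D, J and C segments from Trbd1 to Trbc2 (15.0 kb) and Trbv31 had 0 as well. Nor did the 251 kb between the V array and Trbd1, which holds trypsin genes of the pancreas such as Try4, Prss3 and Prss1, or the 156 kb from Trbv1 to Trbv2. A stretch with 0 listed peaks is one that holds none of this list, in which the lowest score is 4.01. How calls were chosen for the list is not stated in the sources used here, so unlisted calls may lie there. Peaks are scarce everywhere. DNA between a segment of the V array and the J segment it joined may also be partly lost in these cells. The stretch from Trbc2 to Trbv31 lies past the J segments and outside that DNA. None of these zeros shows that Lef1 is absent.

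As a share of segments, the loci stood where annotated features stand in general. Of their 255 segments, 6 (2.35%, 95% exact Clopper-Pearson interval 0.868 to 5.05%) had a peak within 1 kb, against 3.0% of all 49927 annotated genes and segments. Within 5 kb the count was 9 (3.53%, 1.63 to 6.59%) against 3.79%. The segments are short, with a median length of 0.46 kb, and protein-coding genes have a median of 17.2 kb, so the shares are not matched for length. By kind, 8 of 171 V segments (4.68%, 2.04 to 9.01%) had a peak within 5 kb, and 1 of 84 D, J and C segments (1.19%, 0.0301 to 6.46%). These intervals overlap. The 1 was Trac, through the peak in the alpha enhancer stretch. The 3 segments within 5 kb but not 1 kb were Trac, Trbv13-1 and Trav6n-7, the last at 4.96 kb. The segments of both loci had a median distance of 65.5 kb to the nearest peak, against 391 kb for all annotated genes and segments, and since segments crowd around the same few peaks they are not independent.

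Per length the loci held more listed peaks than their surroundings. Tcra had 2.78 peaks per Mb (95% exact Poisson interval 0.904 to 6.50) and Tcrb 3.0 (0.363 to 10.8), where chromosome 14 had 0.658, chromosome 6 had 0.743 and the autosomes together had 0.827. Both loci together had 2.84 (1.14 to 5.86). With neighbours within 1 kb joined this was 2.03 (0.659 to 4.74) against 0.788 for the autosomes, and the interval then includes the autosomal value. With peaks above the median score it was 0.406 (0.0103 to 2.26) against 0.251. The intervals cover counting error only.

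The loci that B cells and gamma delta T cells rearrange are built in the same way and held fewer peaks. Igh, Igk, Igl and Tcrg together had 2 peaks in 6.335 Mb, or 0.316 per Mb (0.0382 to 1.14), an interval that includes the autosomal value of 0.827. The upper bound of this interval and the lower bound for Tcra and Tcrb as listed both round to 1.14, and with neighbours joined the intervals overlap from 0.659 to 1.14. The peak in the heavy chain locus Igh (4.40; chromosome 12, 115920240 to 115920369) overlapped the V segment Ighv1-81. That in the kappa locus Igk (4.09; chromosome 6, 67672397 to 67672452) lay 38.7 kb from the nearest segment. The lambda locus Igl and the gamma locus Tcrg had 0, but they are short, at 0.234 and 0.1784 Mb. Of the 400 segments of the 4 loci, 1 (0.25%) had a peak within 5 kb, against 3.79% of all annotated genes and segments, a share not matched for length.

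**Figure D4:**
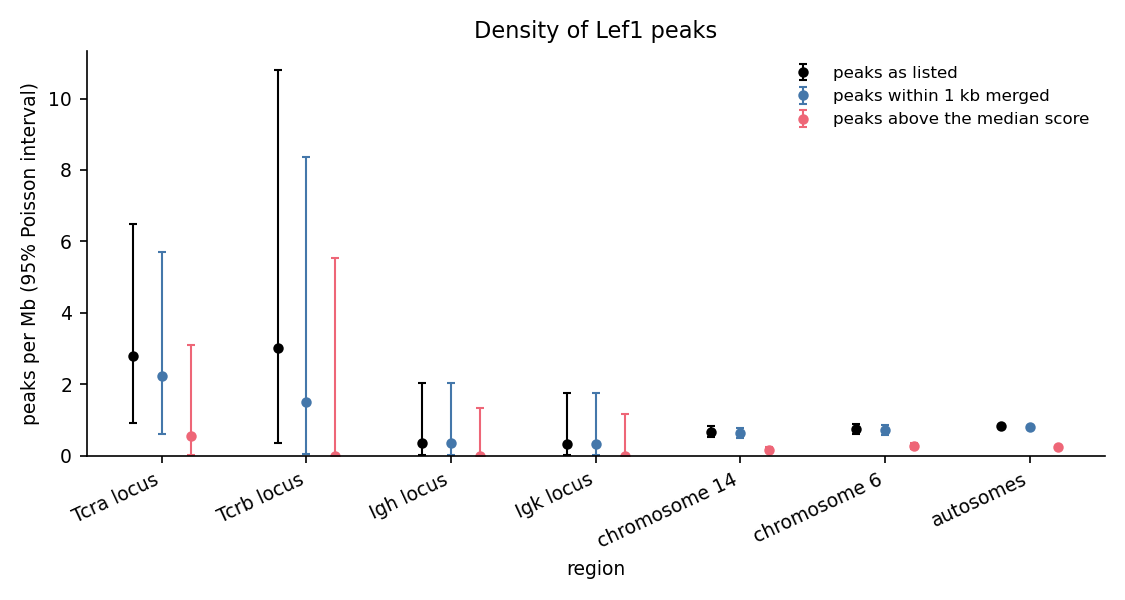
Listed Lef1 peaks per Mb (y axis) in antigen receptor loci, the 2 chromosomes that carry Tcra and Tcrb, and all autosomes, with 95% exact Poisson intervals, for peaks as listed (black), with peaks within 1 kb joined (blue) and for peaks above the median score (red). Tcra at 2.78 and Tcrb at 3.0 stand above the autosomes at 0.827 with wide intervals that shift down when neighbours are joined.

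Genes whose products work with the receptor loci were taken as 4 lists, and a gene counted if a listed peak lay within 50 kb of its body, as for 15.5% of the 21883 protein-coding genes. Of 8 genes for other chains of the receptor complex and for coreceptors, 1 did (12.5%, 0.316 to 52.7%). It was Cd247, the zeta chain, with 2 peaks. The other invariant chains, Cd3d, Cd3e and Cd3g, had their nearest peak at 198 to 227 kb, and Cd4 at 114 kb. Of 10 genes of V(D)J recombination, 2 did (20%, 2.52 to 55.6%), both at a distance: Dclre1c, which encodes the nuclease Artemis, at 38.8 kb (4.55) and the end-joining factor gene Nhej1 at 42.0 kb (4.40). Rag1 and Rag2, the recombinase, lay 329 and 346 kb from a peak, and Dntt, which encodes terminal transferase, 79.2 kb. Among 13 genes that neighbour the loci, Dad1 and Abhd4, both through the peak in the alpha enhancer stretch, made 2 (15.4%, 1.92 to 45.4%), and the trypsin genes had none. These 3 lists stood near the share of all genes.

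Genes for factors known to act at the receptor enhancers had a peak in 8 of 15 cases (53.3%, 26.6 to 78.7%), with a median distance of 44.0 kb to the nearest peak against 317 kb for all protein-coding genes. They are longer than most, with a median length of 71.8 kb. Besides Tcf7, Lef1 and Satb1 these were Runx1 (2 peaks, the higher 4.09 and inside the gene), its partner Cbfb (4.40), Ikzf1 (5.12, inside the gene), Ets1 (4.83, at 44.0 kb) and Bcl11b (4.23). Gata3, Tcf3, Tcf12, Myb, Ctcf, Rad21 and Creb1 had none. The list was drawn up knowing that Tcf7, Lef1 and Satb1 have peaks, and the share and median distance above include them. Without them 5 of 12 had one (41.7%, 15.2 to 72.3%). With peaks above the median score, 5 of 15 had one (33.3%, 11.8 to 61.6%), against 5.84% of all protein-coding genes. These 5 were again Tcf7, Lef1 and Satb1, with Ikzf1 (5.12) and Ets1 (4.83). This share thus rests largely on genes known beforehand to have peaks.

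The peak at Bcl11b, a zinc finger factor of T cell commitment, lay wholly within the promoter stretch of 1 annotated start. Its sequence can thus be shown, from RefSeq on build GRCm38.p6. The peak ran from 108003548 to 108003647 on chromosome 12. The gene is annotated from 107910403 to 108004145 on the minus strand. The start used here, at 108003414, and the peak both lay inside the gene and not at its outermost start. The stretch is chr12:108003415-108003664 on the minus strand, the 250 bases before 1 annotated start of the gene, with the 100 bases under the peak in capitals.
Bcl11b promoter: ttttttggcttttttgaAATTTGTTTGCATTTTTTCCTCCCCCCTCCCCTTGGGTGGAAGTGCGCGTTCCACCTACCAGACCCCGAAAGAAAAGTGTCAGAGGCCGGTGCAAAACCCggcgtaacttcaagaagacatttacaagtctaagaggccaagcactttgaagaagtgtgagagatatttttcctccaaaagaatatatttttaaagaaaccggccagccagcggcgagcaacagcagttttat
The TCF/LEF core was searched as CTTTGA or CTTTGT on either strand. It occurred 1 time, as CTTTGA beginning 89 bases before the start, and 0 times under the peak. Of 32851 promoter stretches of this length in the table, 27.6% held it. The peak at Cbfb reached only 14 bases into the 250 before its start and these 250 held no core. None of the 255 segments of Tcra and Tcrb has an entry in the promoter table, so the same search was not made at the V segments.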

How the data were processed

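Lef1 ChIP-seq libraries of wild-type conventional and of Lef1-deficient CD4+ T cells, 1 each, gave 1 deposited peak list. Its scores are −log10 p-values, per the file headers. FastQC, Bowtie2 2.3.4.1, MACS2 2.1.1 and the mm10 build are named in the submitters' processing notes, without parameters, and the control library is named in the labels. Starts were taken as 0-based, as in BED files, and raised by 1. Segments and genes came from an NCBI RefSeq table for GRCm38.p6 (mm10), which gives no strand or exon. Peaks were placed by centre, distances taken between nearest ends, and chromosome lengths taken from first to last annotated gene. Python 3.11.15, pandas 2.3.3, numpy 2.4.6 and SciPy 1.17.1 were used. Distances were tested on planted peaks. No significance test was made, as there is no replicate.

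The loci and gene lists were chosen with earlier results of these data known. Every peak of the loci, every segment within 5 kb of a peak and every list gene within 50 kb of one is named, with Rag1, Rag2, Dntt, Cd3e and Cd4 among those without. Alternatives were other distances, centres, loci widened by 50 kb, joined neighbours and peaks above the median score. Motif searches under the peaks of the loci were not run for lack of their sequence. Depth is unknown.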

Additional observations from a re-analysis of the deposited data

How the results depend on the processing

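Of 21 alternatives to 7 results, 15 stayed within 1.5 times the main value. Peaks above the median score gave 1 peak in place of 7 in the 2 loci, 0.406 peaks per Mb in place of 2.84, 3 segments within 5 kb in place of 9, 33.3% of enhancer factor genes in place of 53.3%, and 0 peaks per Mb in place of 0.316 in the other antigen receptor loci. Within 20 kb, a longer reach by construction, 37 segments had a peak. Widening the loci by 50 kb gave 8 peaks, the added one being that between Trac and Dad1, and joining neighbours within 1 kb gave 5. All 7 peaks stayed in the V arrays when placed by overlap or with starts taken as 1-based. Joining neighbours in the other loci and leaving Tcf7, Lef1 and Satb1 out were added after the data were seen. The motif alternatives were not run, as no sequence of these peaks was used. No paired analysis was possible because neither genotype was replicated, which also left no replicate to omit.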

Other observations

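The numbers in the deposited peak names rise along each chromosome, so they show how many calls the peak caller made around each listed peak. The 2052 listed peaks carry numbers from 26 to 33876, so most calls across the genome are not in the list. In Tcra the 5 listed peaks carry numbers from 10054 to 10065, a run of 12. Thus 7 calls between Trav12d-3 and Trav10 are not in the list. The next listed number, 10072, belongs to the peak between Trac and Dad1. The listed number before, 10034, belongs to a peak 408 kb below the locus, so at most 37 calls fell in Tcra. In Tcrb the 2 peaks are numbered 25916 and 25917, with no unlisted call between them. The listed numbers on either side, 25871 and 25965, belong to peaks 3280 kb below and 3230 kb above the locus. Up to 93 calls could therefore lie in Tcrb, and how many do is unknown. The scores of unlisted calls were not analysed here.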
